A study of Mus musculus with 2 samples.

Results

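The genes described here are those of cholesterol synthesis and its control by the sterol regulatory element binding proteins (SREBPs), in NIH3T3 cells, an established mouse fibroblast line. They are 29 named genes of the 22838 in the deposited table, chosen as named genes of the pathway and not all of it, with earlier results of these data known: 20 encode enzymes from acetoacetyl-CoA to cholesterol, 5 the SREBP factors and the proteins that control their processing, and 4 act in sterol uptake, transport or sensing. Messenger RNA was sequenced from an untreated culture and from a culture given 100 µM ALA over 16 h, with 1 library for each. ALA is not spelled out in the labels. The series title concerns SRRD, heme synthesis and circadian rhythms, a field in which these letters denote δ-aminolevulinic acid, from which cells make heme. The labels name no transgene or deletion in either culture. No replicate stands behind any difference given here, and none has a p-value.

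Cholesterol is built from acetyl units through mevalonate, isoprenoid diphosphates, squalene and lanosterol, and the same isoprenoids feed protein prenylation, dolichol and ubiquinone. When sterols in the endoplasmic reticulum are low, SCAP escorts the SREBPs to the Golgi, where they are cleaved and released to switch on genes of sterol synthesis and uptake. When sterols are high, the INSIG proteins hold SCAP and the SREBPs back, and oxysterols activate the LXR receptors, which favour sterol export. Several late steps use molecular oxygen, and one, lanosterol demethylation, is carried out by a heme enzyme of the cytochrome P450 family.

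The deposited values are FPKM, which scale fragments to transcript length and library size. They summed to 540963 without and 512324 with ALA, with 10894 and 10888 genes at 1 FPKM or more. The spacing of low values gave a rough depth of 17900000 to 23400000 reads for the untreated library and 27600000 to 31200000 for the ALA library. The labelled cell type was checked against its markers, and 7 of 7 fibroblast markers were above 1 FPKM in both libraries, from 19.7 to 4976 FPKM untreated and from 21.0 to 4717 FPKM with ALA. All 3 adipocyte and all 3 hepatocyte markers were listed at 0 in both libraries. Of 3 epithelial markers, Cdh1 was near 1 FPKM and the other two at or near 0. Of 3 macrophage markers, Csf1r and Ptprc were under 1 FPKM while Cd14 had 13.1 FPKM untreated and 4.69 FPKM with ALA. Any part of other cells in the values of the sterol genes was not tested.

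All 29 genes were measured, meaning a mean of at least 1 FPKM over both libraries, as were 10929 genes in the table. Differences are given as the plain ratio of the FPKM values, called a fold, and as log2((ALA FPKM + 1)/(untreated FPKM + 1)), called the log2 ratio, which understates the change of low genes. Most members were close in both libraries. By a range set after the values were seen, on the log2 scale 19 of 29 members were less than 1.2-fold apart, beside 57.1% of all measured genes. At least 1.5-fold on the same scale, 2 members were higher with ALA, Mvd and Nsdhl, and 1 was lower, Pmvk. The background was 5.90% of measured genes higher and 7.16% lower, so members past this fold were about as frequent as other genes. At least 2-fold, 1 member was higher and 0 were lower, beside 1.49% and 2.01% of measured genes. By sign alone, 16 members were higher and 13 lower, beside 47.8% and 52.2% of measured genes. The summed level of the 29 genes was 794 FPKM untreated and 793 FPKM with ALA.

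**Figure D1:**
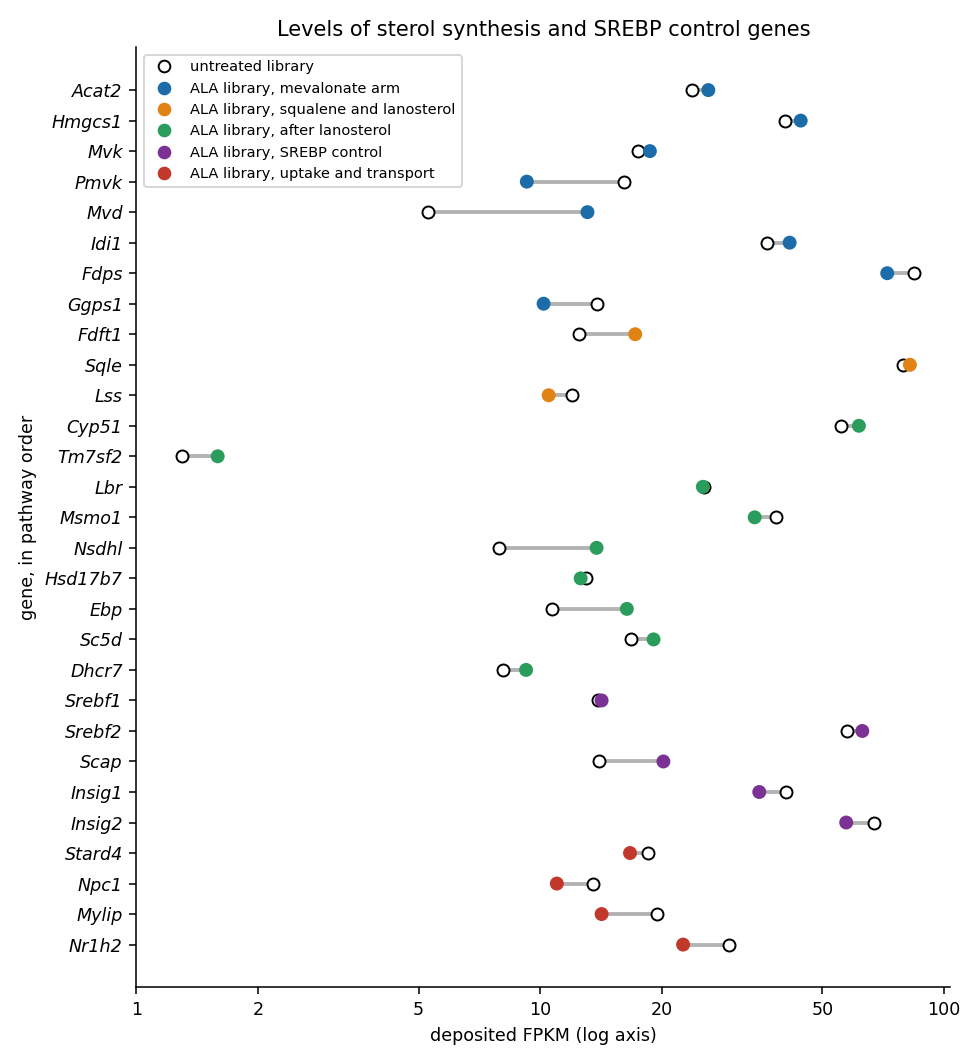
Deposited FPKM of each member on a log axis, in pathway order, with open circles for the untreated library and filled circles for the ALA library, coloured by role. Each circle is 1 library. Mvd (5.28 and 13.1 FPKM), Nsdhl (7.90 and 13.8 FPKM) and Pmvk (16.1 and 9.27 FPKM) have the longest connecting lines, while Sqle, Lbr, Hsd17b7 and Srebf1 overlap.

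The 8 enzymes of the mevalonate arm, from acetoacetyl-CoA to the isoprenoid diphosphates, included both the member with the largest increase and the one with the largest decrease. Mvd encodes mevalonate diphosphate decarboxylase, which makes isopentenyl diphosphate. It had 5.28 FPKM untreated and 13.1 FPKM with ALA, 2.49-fold higher. An approximate 95% counting interval of 2.1 to 2.95-fold, computed from about 166 and 637 reads, covers counting error only and rests on the rough depth. Its log2 ratio of 1.17 ranked 98 from the highest of the measured genes. Pmvk encodes phosphomevalonate kinase, which acts immediately before Mvd. It had 16.1 FPKM untreated and 9.27 FPKM with ALA, 1.73-fold lower with a counting interval of 1.49 to 2.02-fold, and 4.37% of measured genes had a lower log2 ratio than its -0.73. The order of these neighbouring steps by level therefore differed between the libraries: Pmvk was 3.05 times Mvd without ALA, and Mvd was 1.42 times Pmvk with it.

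The other steps of the arm were closer. Acat2, the cytosolic thiolase that makes acetoacetyl-CoA, had 23.8 and 26.1 FPKM in the untreated and ALA libraries. Hmgcs1, HMG-CoA synthase, had 40.5 and 44.2 FPKM, Mvk, mevalonate kinase, 17.5 and 18.7 FPKM, and Idi1, isopentenyl diphosphate isomerase, 36.5 and 41.5 FPKM. These 4 were all 1.07 to 1.14-fold higher with ALA. Fdps, which makes farnesyl diphosphate, was the most abundant of the arm at 84.3 and 72.4 FPKM, 1.16-fold lower. Ggps1, which extends farnesyl to geranylgeranyl diphosphate for protein prenylation and so stands on a branch away from sterols, had 13.8 and 10.2 FPKM, 1.36-fold lower. The median log2 ratio of the 8 genes was 0.11 and their summed level 238 and 235 FPKM. Of the 8, 5 were higher and 3 lower, beside 47.8% and 52.2% of measured genes.

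The next 3 enzymes turn farnesyl diphosphate into lanosterol. Fdft1, squalene synthase, the first enzyme committed to sterols, had 12.5 FPKM untreated and 17.2 FPKM with ALA, 1.37-fold higher. Sqle, squalene epoxidase, an oxygen-using and rate-limiting step, was the most abundant member by its mean and had 79.4 and 82.4 FPKM, with a counting interval that included equal levels. Lss, lanosterol synthase, had 12 and 10.5 FPKM, 1.14-fold lower. The Fdft1 value is uncertain because 18.3% of its exon bases overlap Ctsb, the cathepsin B gene, and no strand setting is given.

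After lanosterol, 6 of 9 genes were higher with ALA and 3 lower, beside 47.8% of measured genes higher, with a median log2 ratio of 0.17. With the summed FPKM of both libraries made equal, called equal FPKM totals, 8 of the 9 were higher, beside 56.9% of measured genes. Nsdhl encodes a sterol dehydrogenase that takes off the oxidised methyl groups of the sterol ring. It had 7.90 FPKM untreated and 13.8 FPKM with ALA, 1.75-fold higher, with a counting interval of 1.53 to 1.99-fold. Ebp, the sterol isomerase that shifts a ring double bond, had 10.7 and 16.4 FPKM, 1.54-fold higher by the plain ratio. Its log2 ratio of 0.58 was just under 1.5-fold, and that of Nsdhl was 0.73.

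The remaining post-lanosterol genes differed little. Cyp51, the heme-containing lanosterol demethylase, had 55.7 and 61.6 FPKM, 1.11-fold higher. Msmo1, the methylsterol oxidase that works before Nsdhl, had 38.5 and 34.0 FPKM, 1.13-fold lower. Hsd17b7, the 3-ketosteroid reductase of the same demethylation cycle, had 13.0 and 12.6 FPKM. The genes of this demethylation cycle thus differed in sign. Hsd17b7 lay so near equality that its sign turned with equal FPKM totals, as did that of Lbr. Sc5d, the C5 desaturase, had 16.8 and 19.1 FPKM, and Dhcr7, which reduces 7-dehydrocholesterol to cholesterol, had 8.09 and 9.23 FPKM, 1.13 and 1.14-fold higher.

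The double bond left by lanosterol demethylation can be reduced by the products of 2 genes, Tm7sf2 and Lbr, the latter also a lamin B receptor of the inner nuclear membrane. Lbr had 25.4 and 25.3 FPKM. Tm7sf2 was the least abundant member at 1.30 and 1.59 FPKM, from about 35 and 66 reads, and the difference was not detectable at this depth. Per length, Lbr was 19.6 times Tm7sf2 untreated and 15.9 times with ALA. For Tm7sf2, 12.1% of exon bases overlap another gene, mostly Vps51.

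The 4 enzymes that use molecular oxygen (Sqle, Cyp51, Msmo1 and Sc5d) were all less than 1.2-fold apart, beside 57.1% of measured genes. Their log2 ratios ran from -0.18 to 0.17, with a median of 0.10. Their summed level was 190 FPKM untreated and 197 FPKM with ALA.

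**Figure D2:**
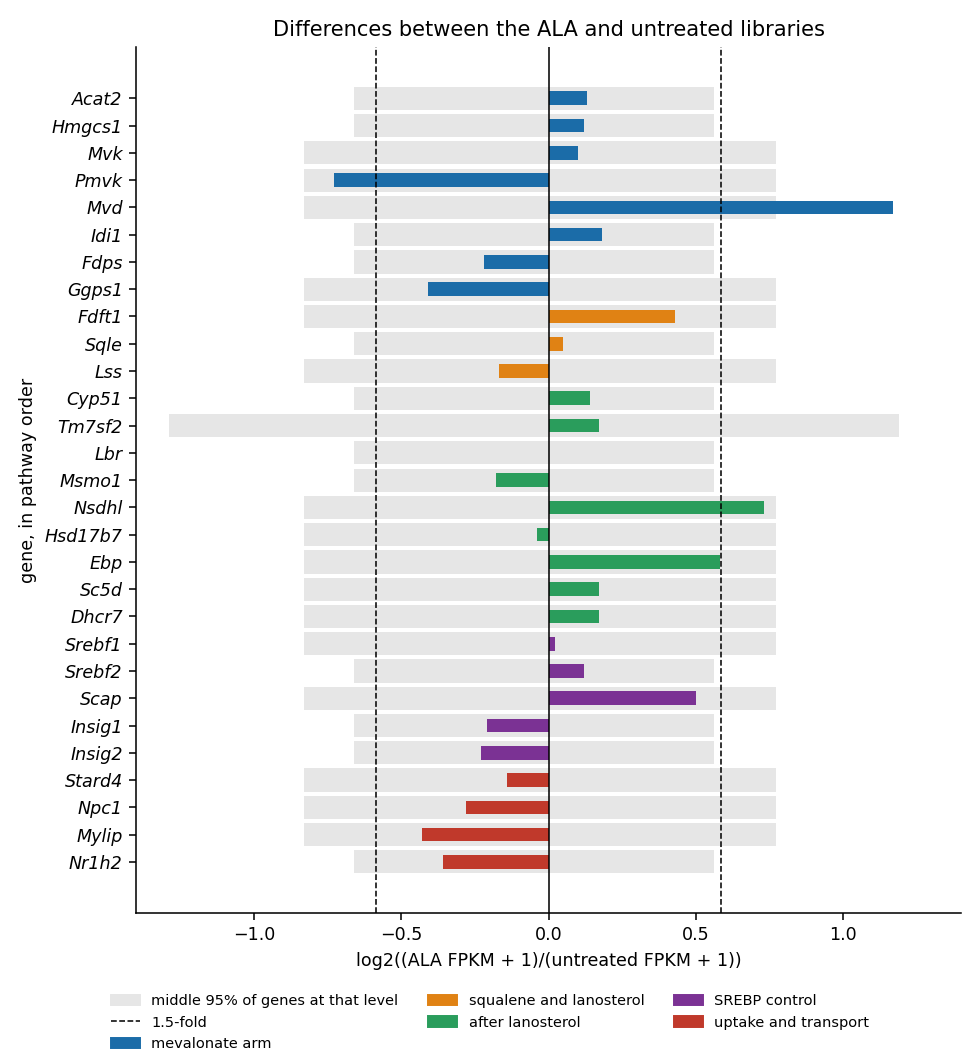
Log2 ratio of each member in pathway order, coloured by role, with dashed lines at 1.5-fold. Grey bars give the middle 95% of log2 ratios of all genes in the same range of mean FPKM, and the bar of Mvd at 1.17 alone passes its grey bar, which ends at 0.77.

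Among the 5 control genes, no log2 ratio reached 1.5-fold, beside 5.90% of measured genes higher and 7.16% lower. Srebf2, the factor that mainly drives sterol synthesis genes, had 57.6 FPKM untreated and 62.8 FPKM with ALA, 1.09-fold higher. Srebf1, whose products mainly drive fatty acid synthesis genes, had 13.9 and 14.2 FPKM. Per length, Srebf2 was 4.13 times Srebf1 without ALA and 4.43 times with it. Scap, the sterol-sensing escort of both factors, was the control gene furthest apart, with 14.0 and 20.2 FPKM, 1.44-fold higher with a counting interval of 1.34 to 1.55-fold. Of its sequence, 10.6% is shared with 5830462I19Rik, so a part of the Scap value is uncertain.

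Both retention genes were slightly lower with ALA. Insig1, itself a target of the SREBPs and so often read as a sign of their activity, had 40.7 and 34.9 FPKM, 1.16-fold lower. Insig2, which is not driven by SREBPs in the same way, had 67.3 and 57.3 FPKM, 1.18-fold lower. Their ratio was nearly equal in both libraries, Insig2 being 1.66 times Insig1 untreated and 1.64 times with ALA. Insig1 and Hmgcs1, both known targets of SREBP-2, thus differed in sign, at log2 ratios of -0.21 and 0.12. Both were less than 1.2-fold apart and inside the middle 95% of genes at their level, from -0.66 to 0.56. Of the Hmgcs1 sequence, 12.2% is shared with other genes.

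The 4 genes of uptake, transport and sterol sensing were all lower with ALA, beside 52.2% of measured genes. None was lower by 1.5-fold, beside 7.16%. With equal FPKM totals all 4 stayed lower, beside 43.1%. Their median log2 ratio was -0.32, beside -0.019 over all measured genes, and their summed level was 80.9 FPKM untreated and 64.5 FPKM with ALA. Mylip, the ubiquitin ligase IDOL that marks lipoprotein receptors for degradation and is a target of LXR, had 19.5 and 14.2 FPKM, 1.37-fold lower. Nr1h2, which encodes LXRβ, had 29.4 and 22.6 FPKM, 1.30-fold lower. Npc1, the lysosomal membrane protein that exports cholesterol released from lipoproteins, had 13.5 and 11 FPKM, 1.23-fold lower. Stard4, a cytosolic sterol carrier, had 18.5 and 16.7 FPKM, 1.11-fold lower. In RNA from a whole culture, fewer cells with a transcript and less of it per cell cannot be told apart.

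Set among all measured genes, 1 of the 29 members, Mvd, lay outside the middle 95% of log2 ratios of genes at its level. That range ran from -0.83 to 0.77 over 4498 genes with a mean of 5 to 20 FPKM, where Nsdhl at 0.73 and Pmvk at -0.73 were just inside, and from -0.66 to 0.56 over 3360 genes with 20 to 100 FPKM. The counting intervals were narrower: they excluded equal levels for 23 of 29 members, beside 72.4% of 10447 measured genes with a gene model and both values above 0, and included them for 6 members, namely Mvk, Sqle, Tm7sf2, Lbr, Hsd17b7 and Srebf1.

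**Figure D3:**
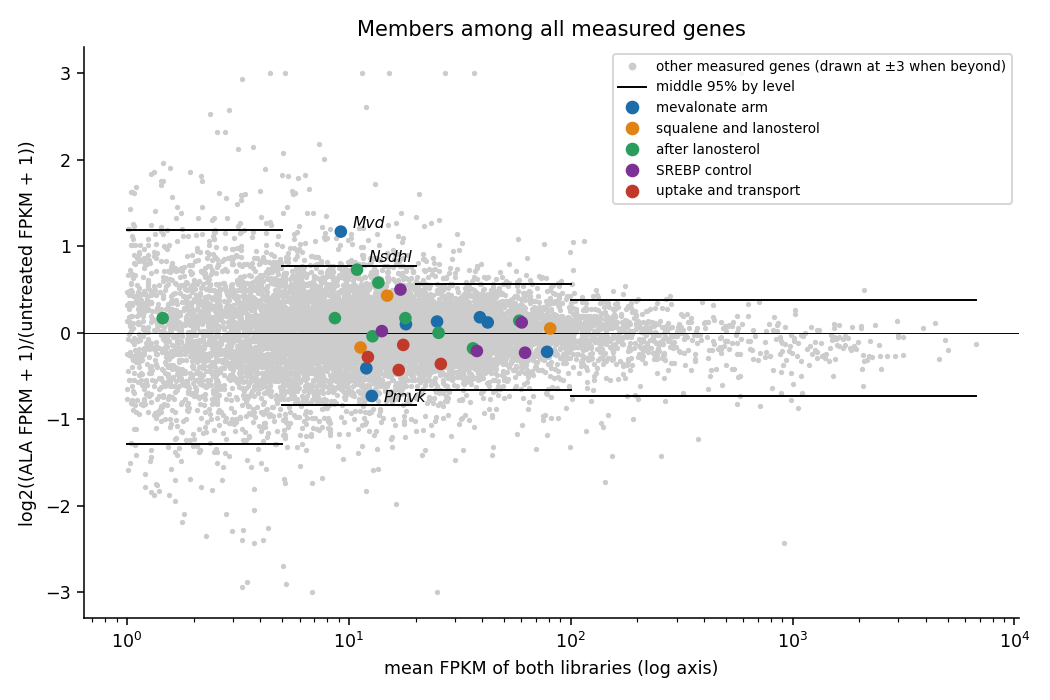
Log2 ratio against the mean FPKM of both libraries for all 10929 measured genes in grey, with members coloured by role and black lines at the middle 95% of genes in 4 ranges of level. Mvd is the only coloured point outside the lines, with Nsdhl just inside the upper line and Pmvk just inside the lower one.

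Promoter windows are shown for Mvd and Nsdhl, the members at least 1.5-fold higher, and for Hmgcs1, the 1 member whose window held the sterol regulatory element searched. Each runs from 250 bases before to 50 bases after a RefSeq start site of GRCm38.p6 and is written 5′ to 3′ on the strand of the gene. Capitals mark the sterol element TCACNCCAC, the NF-Y box CCAAT and the Sp1 box GGGCGG on either strand. SREBPs are weak activators alone, and NF-Y and Sp1 are their usual partners at sterol-responsive promoters.
Mvd, chr8:122443373-122443672, minus strand: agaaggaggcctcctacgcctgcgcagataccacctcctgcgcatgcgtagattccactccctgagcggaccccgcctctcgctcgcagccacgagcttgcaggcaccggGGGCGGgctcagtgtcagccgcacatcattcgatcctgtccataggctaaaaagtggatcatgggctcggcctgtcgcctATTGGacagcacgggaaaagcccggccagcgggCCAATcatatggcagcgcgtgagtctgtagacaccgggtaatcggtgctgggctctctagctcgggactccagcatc
Nsdhl, chrX:72918271-72918570, plus strand: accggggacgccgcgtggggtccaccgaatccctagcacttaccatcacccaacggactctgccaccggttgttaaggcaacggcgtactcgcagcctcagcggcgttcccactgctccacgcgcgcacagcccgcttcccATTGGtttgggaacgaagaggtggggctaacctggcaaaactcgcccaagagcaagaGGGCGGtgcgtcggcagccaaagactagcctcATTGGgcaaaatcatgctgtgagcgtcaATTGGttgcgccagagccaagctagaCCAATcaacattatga
Hmgcs1, chr13:119690101-119690400, plus strand: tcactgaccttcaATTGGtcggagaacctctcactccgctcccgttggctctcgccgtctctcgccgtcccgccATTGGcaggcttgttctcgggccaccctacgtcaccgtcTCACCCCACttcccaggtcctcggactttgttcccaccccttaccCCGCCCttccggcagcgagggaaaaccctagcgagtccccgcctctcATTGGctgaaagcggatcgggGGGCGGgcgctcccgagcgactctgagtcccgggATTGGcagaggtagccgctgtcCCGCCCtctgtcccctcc

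The Mvd window held 2 NF-Y boxes, which begin 60 and 27 bases before the start site, and an Sp1 box 140 bases before it. The Nsdhl window held 4 NF-Y boxes and 1 Sp1 box, and the Hmgcs1 window 4 NF-Y boxes, 3 Sp1 boxes and the sterol element 137 bases before the start. Pmvk, the member 1.5-fold lower, has 2 RefSeq windows, and neither is printed. The window whose start site lies inside the deposited locus, at base 89459571, held no NF-Y or Sp1 box. That site is downstream of the GENCODE start of Pmvk at 89454541, so the window may not hold the main promoter. The other window, at 89454541, held the single NF-Y box of Pmvk and no Sp1 box. Which start site these cells use was not tested. A window was at hand for 24 of the 29 members, and not for Fdps, Fdft1, Sqle, Stard4 and Npc1. An NF-Y box occurred in at least 1 window of 21 of these 24 (87.5%), beside 41.1% of 27025 genes with a window, and an Sp1 box likewise in 21 (87.5%), beside 38.2%. The sterol element was found in 1 of the 24 members (4.17%), beside 1.44% of genes, and the E-box CACGTG in 5 (20.8%), beside 8.09%. Only the string TCACNCCAC was searched, so other forms of the sterol element were not counted. The 27025 genes were not limited to the 10929 measured genes, whereas all members were measured. Shares among measured genes were not computed, so these differences cannot be assigned to the pathway rather than to expressed genes in general. Both boxes stood in the windows of genes on both sides of equality. As examples, Mvd, Nsdhl and Ebp were higher, and Insig1, Insig2 and Mylip were lower. The members with a window but no Sp1 box were Pmvk, Ggps1 and Nr1h2. All were lower with ALA (log2 ratios -0.73, -0.41 and -0.36), beside 52.2% of measured genes. Lss, Lbr, Msmo1, Hsd17b7, Insig1, Insig2 and Mylip had an Sp1 box and were lower too, while the other members with an Sp1 box were higher. The members with a window but no NF-Y box were Acat2 and Scap, which were higher, and Nr1h2. A link between the boxes and the direction of the difference was not tested. A match of letters is a description and not evidence of binding.

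Other genes of sterol handling were read from a list of 74 symbols, of which 72 had a row and 66 were measured. At least 1.5-fold on the log2 scale, 1 of the 66 was higher with ALA and 2 were lower, beside 5.90% and 7.16% of measured genes. Prkag2, a regulatory subunit of the AMP-activated kinase that phosphorylates enzymes of sterol and fatty acid synthesis, was the highest at 1.85 and 4.24 FPKM, a log2 ratio of 0.88. Of its sequence, 12.1% is shared, mostly with Prkag2os2. Pcyt2 of phosphatidylethanolamine synthesis followed at 1.59 and 2.71 FPKM (0.52), and Faf2, which helps to degrade sterol-regulated proteins of the endoplasmic reticulum, at 18.4 and 25.9 FPKM (0.47). Soat1, which esterifies cholesterol for storage, was the lowest at 29 FPKM untreated and 17.0 FPKM with ALA, 1.70-fold lower with a log2 ratio of -0.74, outside the middle 95% of genes at its level. Scarb2, a lysosomal membrane protein, had 32.8 and 21.4 FPKM (-0.60), and Nfyc, the NF-Y subunit, 26.9 and 18.0 FPKM (-0.55), with 24.4% of the Nfyc sequence shared.

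Split by role, a division made after the values were seen, the measured genes of lipoprotein uptake and lysosomal sterol release were lower in 10 of 10 cases, beside 52.2% of measured genes, with a median log2 ratio of -0.41. Npc2, which hands cholesterol to the NPC1 protein, had 150 FPKM untreated and 106 FPKM with ALA, 1.42-fold lower. Lipa, the lysosomal acid lipase that frees cholesterol from its esters, had 53.1 and 39.4 FPKM, and Scarb1, a lipoprotein receptor, 27.1 and 19.1 FPKM. Cav1, the caveolar coat gene, was nearest to equality at 483 and 462 FPKM. With equal FPKM totals its log2 ratio turned from -0.06 to 0.01, leaving 9 genes lower beside 43.1% of measured genes. Of 9 genes of sterol transfer, storage and efflux 8 were lower, beside 52.2% of measured genes, and the median was -0.13. With equal FPKM totals 6 were lower, beside 43.1%. SREBP processing and sensing genes were even, with 6 of 12 higher, beside 47.8% of measured genes, and a median of 0.02. With equal totals 7 were higher, beside 56.9%. The cleavage proteases Mbtps1 and Mbtps2 were at -0.11 and 0.29.

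The 12 SREBP-1 lipid targets had 7 genes higher and 5 lower, beside 47.8% and 52.2% of measured genes, with a median of 0.05. With equal totals 8 were higher and 4 lower, beside 56.9% and 43.1%. Fasn, fatty acid synthase, had 20.7 and 24.6 FPKM, Acly, which makes cytosolic acetyl-CoA, 39.1 and 45.4 FPKM, and the desaturase gene Scd1 90.3 and 83.8 FPKM. Among electron donors of the sterol oxidases, Cyb5a, a heme-containing cytochrome b5, had 71.0 and 91.5 FPKM (log2 ratio 0.36), Por, cytochrome P450 reductase, 27.7 and 29.6 FPKM (0.09) and Cyb5r3, cytochrome b5 reductase, 514 and 464 FPKM (-0.15). Nr1h3, which encodes LXRα, and the export gene Abcg1 were under 0.1 FPKM in both libraries, and Ch25h, an oxysterol-forming hydroxylase, was listed at 0. Abca1, a main cellular sterol exporter and LXR target that was not on the list and is named after its values were seen, had 3.21 FPKM untreated and 1.67 FPKM with ALA, 1.92-fold lower with a log2 ratio of -0.66, inside the middle 95% of genes at its level.

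**Figure D4:**
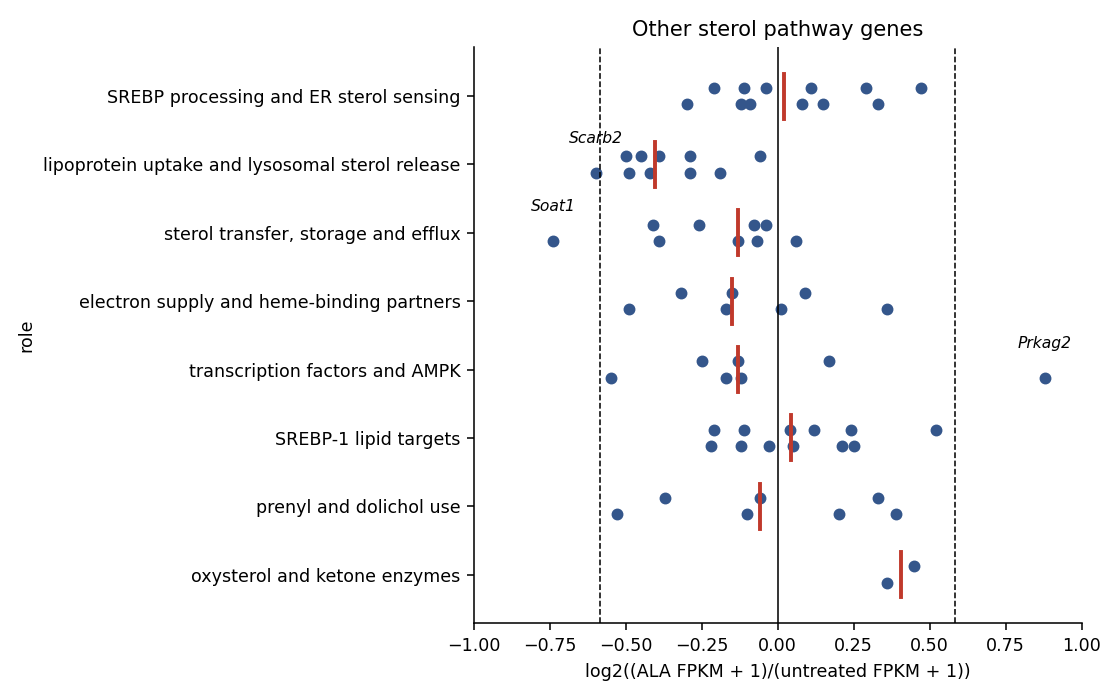
Log2 ratio of 66 measured genes of the other sterol pathway list, by role, with 1 point per gene, a red line at the median of each role and dashed lines at 1.5-fold. All 10 genes of lipoprotein uptake and lysosomal release lie left of 0, with a median of -0.41, and Soat1, Scarb2 and Prkag2 lie beyond the dashed lines.

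Reads of 41 bases can be placed wrongly where genes share sequence. Mvd, Nsdhl, Pmvk, Ebp, Hsd17b7, Insig2 and Nr1h2 share no stretch of 41 bases with any other annotated gene and overlap no exon of another gene in the table. For 8 members at least 10% of the sequence is shared or overlapping, which makes their values uncertain. Acat2 shares 41.0% with Acat3, its close relative on the same chromosome, Fdft1 28.7% with all other genes together, Fdps 27.2%, Idi1 26.1%, Hmgcs1 12.2%, Ggps1 11.4% and Scap 10.6%. The eighth is Tm7sf2. In the GENCODE annotation of GRCm38, Mvd occupies bases 122433601 to 122443422 of chromosome 8, minus strand, with 10 exons in its longest coding transcript of 1756 bp. Nsdhl lies on the plus strand of chromosome X from 72918557 to 72958514 with 8 exons, and Pmvk on the plus strand of chromosome 3 from 89454541 to 89469013 with 5 exons.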

How the data were processed

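The authors deposited 1 table of FPKM values per gene, in the layout of a Cufflinks tracking file, per the file headers. FastQC 0.11.5, TopHat2 2.1.1 and Cufflinks 2.2.1 on mm10 are named in the submitters' processing notes. For annotation, options, strand and scaling nothing is stated (not given in the sources used here). Reads were single-end of 41 bases, per the labels' protocols. Lower and upper bounds were equal in 100% of rows and carry no error. Log2 ratios used a pseudocount of 1 FPKM, and counts were restricted to genes averaging at least 1 FPKM. Members, lists and thresholds were chosen with earlier results of these data known. All members are named, as are genes of the other list at least 1.5-fold apart and its 3 highest and 3 lowest, others, and 1 gene outside it, as illustration of a role. Depth was fitted to the spacing of values under 0.2 FPKM in genes with 1 transcript over 1000 bp, taking 4 assumptions about effective length. The fits were weak and their lowest depths were used, which widens the intervals. GENCODE vM21 (GRCm38, the assembly of mm10) gave lengths, positions and shared 41-base stretches on either strand, and 94.4% of rows matched it by symbol and position. Promoters are from RefSeq. Analyses used Python 3.11.15, numpy 2.4.6 and pandas 2.3.3.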

Additional observations from a re-analysis of the deposited data

How the results depend on the processing

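No paired analysis was possible because each group has 1 library. Mvd remained at least 1.5-fold higher under each of 4 alternatives of pseudocount and scaling, from 0.82 to 1.30 on the log2 scale. With a pseudocount of 5 FPKM, 1 member or synthesis enzyme was at least 1.5-fold higher and 0 lower, Nsdhl being at 0.54. Of the other sterol genes 0 were higher and 1 lower. In that setting 1.78% of measured genes were higher and 2.74% lower, so the share over all genes fell too. With a pseudocount of 0.1 FPKM, 2 other sterol genes were higher, Pcyt2 joining Prkag2, beside 8.06% of measured genes. Among genes averaging at least 5 FPKM, 0 other sterol genes were higher, beside 4.05%. With equal FPKM totals or centring, 1 other sterol gene was lower, Scarb2 being lost, beside 5.87% and 6.84% of measured genes. Ebp passed 1.5-fold with a pseudocount of 0.1, equal totals or centring, where 8.06%, 7.76% and 6.32% of measured genes were higher by that fold. Equal totals raised the median of measured genes by 0.07. Of the 21 members with under 10% shared sequence, 10 were higher, beside 16 of all 29 members and 47.8% of measured genes. Their median log2 ratio was 0.00, beside 0.05 for all members. Synthesis enzymes among them were higher in 8 cases, with a median of 0.10, beside 0.13 for all synthesis enzymes. Depth limits Tm7sf2 most, whose difference lay within its counting interval, and variation between cultures was not measured.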
